A study of Homo sapiens with 6 samples.

Results

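The transcripts described are those of the replication-dependent and linker histone genes in cells of the human bladder cancer line RT-112 after silencing of PPP2R2A, which encodes a regulatory B subunit of protein phosphatase 2A. A probe set, a group of array probes read as 1 signal, was included when every gene symbol in the platform's table began with H1-, H2AC, H2BC, H3C or H4C. This gave 78 probe sets of 54675, carrying 69 symbols. RNA was measured on 6 arrays: 2 from cells given siRNA 1 against PPP2R2A, 2 from cells given siRNA 2 against PPP2R2A and 2 from cells given a scramble siRNA. In each group the cells were plated at 50% confluence, received 50 nM siRNA and a second transfection 24 h later, and were harvested 24 h after that. The series describes the arrays of a group, lettered A and B, as technical duplicates, so every p-value below measures only the spread between these arrays.

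Histones are the proteins around which DNA is wound. The core histones H2A, H2B, H3 and H4 form the nucleosome, and the linker histone H1 binds the DNA where it enters and leaves. The replication-dependent genes lie mostly in clusters and are transcribed mainly in S phase, when new DNA must be packaged. Most of their mRNAs end in a conserved stem-loop in place of a poly(A) tail, although some of these genes also give polyadenylated transcripts. The kit named in the labels primes from poly(A) tails, so a signal here is mainly that of polyadenylated RNA. In a bulk sample, fewer cells that express a gene and less RNA per cell cannot be told apart.

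By class, 13 of the probe sets were for H1, 16 for H2A, 20 for H2B, 10 for H3 and 16 for H4. Another 2 carried symbols of both H2A and H3, and 1 was for the antisense RNA H1-10-AS1, which met the rule by its name and encodes no histone. On chromosome 6 alone, where the large histone clusters lie, were the genes of 59 probe sets. Because histone coding sequences are so alike, 20 probe sets carried several symbols, up to 14 for some H4 probe sets, and such a signal cannot be split among its genes. In addition, 24 were of the types that can bind related transcripts.

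Of the 78, 33 had a signal above the array's median on at least 2 of the 6 arrays and were tested, and 45 did not. The 45 had signals between 0.573 and 120.008 with a median of 23.1, against array medians of 69.3 to 76.2. They included the probe sets for the linker histones H1-1, H1-3, H1-4 and H1-5, those for the germ-line histones H1-6, H1-7, H1-8 and H2BC1, and the 3 probe sets for pseudogenes. Tested were 2 probe sets for H1, 10 for H2A, 11 for H2B, 3 for H3, 6 for H4 and 1 shared by H3C4 and H2AC7. Only knockdown arrays brought 3 of the 33 past the filter, those for H4C9, H2BC4 (236193_at) and H3C6 (236278_at), and scramble arrays alone brought 0.

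The silenced gene gave signals of 336 and 397 with siRNA 1, 510.0 and 533 with siRNA 2, and 1381 and 1589 with scramble. Its log2 changes were -2.02 with siRNA 1 and -1.51 with siRNA 2. Changes were tested with limma on log2(signal + 1) over all 29374 probe sets above the filter, and a probe set was called if it changed 1.5-fold or more and its p, adjusted by Benjamini-Hochberg, was below 0.05. PPP2R2A itself was not called by this test (adjusted p = 0.0842 with siRNA 1 and 0.0928 with siRNA 2). When limma's assumed spread was allowed to depend on signal level, here called the intensity trend, it was called lower with both (adjusted p = 0.000151 and 0.000413). Of 16 urothelial and epithelial markers 15 passed the filter, and UPK3A lay between 4.45 and 7.91 on every array. The 16 summed to 148138 to 153565 with siRNA 1, 129090 to 136252 with siRNA 2 and 151481 to 156836 with scramble. Of 8 markers of leukocytes, endothelium and fibroblasts, 4 passed the filter (CD3E, PECAM1, COL1A1 and LUM), with LUM at 4520 to 6351. These 8 summed to 6787 to 7743 with siRNA 1, 5882 to 5964 with siRNA 2 and 6126 to 6412 with scramble. The part of these levels in the histone results was not tested.

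By limma, 0 of the 33 histone probe sets were called with siRNA 1, 0 with siRNA 2 and 0 between the siRNAs, where the share called among all probe sets tested was 0% in each comparison. At an unadjusted p under 0.05, 5 were higher and 1 lower with siRNA 1, against 6.97% and 5.98% of all probe sets tested. Of those 5, H4C9 and H3C6 (236278_at) had passed the filter through knockdown arrays alone, and 3 were higher without them. With siRNA 2, 7 were higher and 1 lower at that level, against 8.63% and 8.11%. With the intensity trend, 1 histone probe set, H1-10, was called higher and 0 lower with siRNA 1, where 0.861% of all were called higher and 0.746% lower. With siRNA 2 the trend fit called 6 higher and 0 lower, where 1.67% of all were called higher and 1.43% lower. The 6 were for the linker histone H1-10, the H2A genes H2AC6, H2AC25 and a group of 6 including H2AC12, and the H2B gene H2BC5 by both of its probe sets. The calls depended on the arrays used. For all 6, both siRNA 2 arrays lay above both scramble arrays, so leaving out 1 array could not bring a change below 0. With all arrays their log2 changes ranged from 0.66 to 1.22. Without siRNA 2 array B, or without scramble array A, the changes ranged from 0.58 to 0.98 and from 0.49 to 1.07. Without siRNA 2 array A they ranged from 0.74 to 1.56, and without scramble array B from 0.80 to 1.44. Fewer of the 6 were called in these fits, but each leaves 1 array in a group, so the counts are not given. H1-10 was called in each of these fits. Its call with siRNA 1 was lost when any 1 of the 4 arrays of that comparison was left out, although its log2 change stayed between 0.74 and 0.92.

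H1-10, a linker histone expressed outside S phase as well and from polyadenylated mRNA, gave signals of 815 and 924 with siRNA 1, 861 and 1152 with siRNA 2, and 503 and 473 with scramble. Its probe set was of a type that can bind related transcripts. All 4 knockdown arrays lay above both scramble arrays. The means were 869 ± 77.4 with siRNA 1, 1007 ± 206 with siRNA 2 and 488 ± 21.1 with scramble (SD, n = 2 each). The log2 change was 0.83 with siRNA 1 (95% interval 0.37 to 1.29, limma adjusted p = 0.221, with the intensity trend 0.0178). It was 1.03 with siRNA 2 (0.57 to 1.49, adjusted p = 0.121, with the trend 0.00442). The only other H1 probe set tested was that of H1-2, a replication-dependent linker histone. It gave 215 and 229 with siRNA 1, 212 and 278 with siRNA 2, and 193 and 222 with scramble, and the groups overlapped with both siRNAs.

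**Figure D1:**
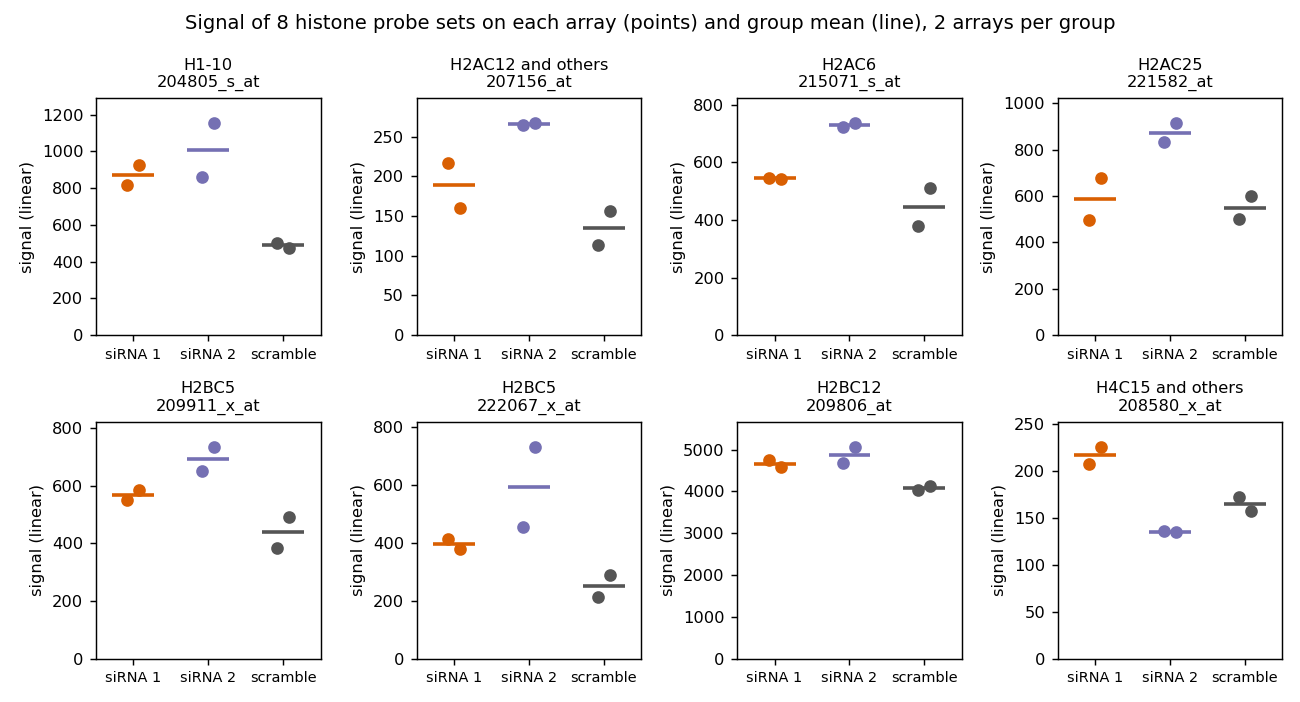
Linear signal of 8 histone probe sets on each array (points) and the group mean (line), for siRNA 1, siRNA 2 and scramble, with each vertical axis starting at 0. For H1-10 both knockdown groups lay above scramble (means 869, 1007 and 488), and for H2AC25 siRNA 2 did (872, with 588 for siRNA 1 and 549 for scramble).

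H2AC6, a replication-dependent H2A gene known to give polyadenylated transcripts too, gave signals of 547 and 542 with siRNA 1, 721 and 735 with siRNA 2, and 379 and 509 with scramble. This probe set was also of a type that can bind related transcripts. Both siRNA 2 arrays were the highest of the 6, and both siRNA 1 arrays also lay above scramble. Its log2 change was 0.73 with siRNA 2 (95% interval 0.30 to 1.16, limma adjusted p = 0.159, with the trend 0.0231) and 0.31 with siRNA 1 (adjusted p = 0.513). H2AC25, an H2A gene on chromosome 1, gave 497 and 679 with siRNA 1, 832 and 913 with siRNA 2, and 501 and 598 with scramble. Here the siRNA 2 arrays stood above the other 4, and the siRNA 1 and scramble arrays overlapped. The log2 change was 0.67 with siRNA 2 (0.16 to 1.18, adjusted p = 0.215, with the trend 0.0421) and 0.085 with siRNA 1. Another probe set for H2AC25 (231681_x_at) did not pass the filter and gave 43.4 and 62.9 with siRNA 1, 72.0 and 41.6 with siRNA 2, and 60.2 and 72.1 with scramble. That probe set did not follow the brighter one.

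The probe set shared by H2AC12, H2AC11, H2AC17, H2AC16, H2AC15 and H2AC13 (207156_at) gave signals of 217 and 161 with siRNA 1, 264 and 267 with siRNA 2, and 114 and 157 with scramble. All 4 knockdown arrays lay above scramble, by little for siRNA 1 array B. The log2 change was 0.99 with siRNA 2 (95% interval 0.40 to 1.57, limma adjusted p = 0.158, with the trend 0.0456) and 0.48 with siRNA 1 (adjusted p = 0.460). A second probe set with the same 6 symbols (214542_x_at) gave 78.6 and 8.25 with siRNA 1, 102 and 20.7 with siRNA 2, and 95.8 and 22.3 with scramble. In that probe set array B was low in every group, and its log2 change with siRNA 2 was -0.0072. Of the other H2A probe sets, that of H2AC15 had the largest fitted changes, 1.94 with siRNA 1 and 1.73 with siRNA 2. They rested on 1 scramble array: its signals were 107 and 61.9 with siRNA 1, 82.2 and 60.0 with siRNA 2, and 2.91 and 117 with scramble. The groups overlapped, and the interval with siRNA 1 ran from -2.31 to 6.19. The 3 probe sets shared by H2AC19 and H2AC18 changed by 0.30 to 0.65 with siRNA 2 on the log2 scale, H2AC4 by 0.50 and H2AC17 by 0.48, and none of these was called.

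H2BC5, a replication-dependent H2B gene that also gives polyadenylated mRNA, was read by 2 probe sets that can bind related transcripts. The first (209911_x_at) gave 552 and 585 with siRNA 1, 651 and 734 with siRNA 2, and 386 and 492 with scramble. The second (222067_x_at) gave 415 and 379 with siRNA 1, 455 and 730.5 with siRNA 2, and 212 and 289 with scramble. In both, all 4 knockdown arrays lay above scramble, and in the second siRNA 2 array B stood far above array A. Their log2 changes with siRNA 2 were 0.66 (95% interval 0.25 to 1.08, limma adjusted p = 0.168, with the trend 0.0302) and 1.22 (0.48 to 1.95, adjusted p = 0.163, with the trend 0.0139). With siRNA 1 they were 0.38 and 0.68, not called by either fit.

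H2BC12, which also gives polyadenylated mRNA, gave 4740.0 and 4571 with siRNA 1, 4689 and 5059 with siRNA 2, and 4028 and 4124 with scramble. All 4 knockdown arrays lay above scramble, but the log2 changes were small, 0.19 and 0.26, and were not called (limma adjusted p = 0.501 and 0.302). H2BC12L, a related gene on chromosome 21, was read by a probe set that can bind related transcripts. It gave 638 and 597 with siRNA 1, 580.2 and 725 with siRNA 2, and 446 and 473 with scramble. Its log2 changes were 0.42 and 0.50 (adjusted p = 0.353 and 0.214). A probe set shared by H2BC4 and 4 other H2B genes (208490_x_at) stood the other way with siRNA 1: 151 and 161 with siRNA 1, 246 and 201 with siRNA 2, and 224 and 216 with scramble. Its log2 change with siRNA 1 was -0.49 (adjusted p = 0.291). A second probe set of those genes (208523_x_at) gave log2 changes of 0.069 with siRNA 1 and 0.0022 with siRNA 2. The remaining H2B probe sets, for H2BC21, H2BC9, H2BC6, H2BC4 (236193_at) and the pair H2BC11 and H2BC8, ranged from -0.31 to 0.44 with siRNA 2. The highest of these was H2BC4 (236193_at), which had passed the filter through knockdown arrays alone.

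For H3, the main probe set, shared by 10 genes including H3C7 (206110_at), gave 138 and 116 with siRNA 1, 133 and 133 with siRNA 2, and 135 and 150.2 with scramble. The siRNA 1 and scramble arrays overlapped, and the log2 changes were -0.16 and -0.097. H3C6 was read by 2 probe sets. The first (214616_at) gave 50.7 and 83.6 with siRNA 1, 11.0 and 55.4 with siRNA 2, and 75.3 and 51.3 with scramble, and its change of -1.28 with siRNA 2 rested on array A. The second (236278_at) gave 97.1 and 83.7 with siRNA 1, 88.6 and 81.7 with siRNA 2, and 64.7 and 71.3 with scramble. That probe set had also passed the filter through knockdown arrays alone, so its standing above scramble is given only as values. The probe set shared by H3C4 and H2AC7 gave 45.0 and 90.2 with siRNA 1, 36.6 and 34.4 with siRNA 2, and 60.9 and 84.1 with scramble. Its log2 change with siRNA 2 was -0.99 (95% interval -1.95 to -0.04, limma adjusted p = 0.286).

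For H4, the brightest probe set (205967_at), shared by 14 genes including H4C15, gave 29450.2 and 27071 with siRNA 1, 26884 and 32237 with siRNA 2, and 30463 and 25897 with scramble. The 3 groups overlapped, and the log2 changes were 0.0076 and 0.068. Another probe set with the same 14 symbols (208580_x_at) gave 208 and 226 with siRNA 1, 136 and 135 with siRNA 2, and 172 and 157 with scramble. Its siRNA 1 arrays lay above scramble and its siRNA 2 arrays below. The log2 changes were 0.40 and -0.28, and neither was called (adjusted p = 0.284 and 0.303). H4C9 gave 119 and 103 with siRNA 1, 40.6 and 101 with siRNA 2, and 49.1 and 42.3 with scramble. It had passed the filter through knockdown arrays alone, so its higher siRNA 1 signals are given only as values, and siRNA 2 and scramble overlapped. H4C11 and H4C8 changed by -0.025 and -0.47 with siRNA 1 and by -0.14 and 0.26 with siRNA 2.

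The promoters of 4 genes called higher with siRNA 2 in the trend fit are shown because these members moved in the same direction. Each is the 250 bases before the RefSeq start (GRCh38.p14), written 5′ to 3′ on the gene's strand: H1-10 at chr3:129316287-129316536 (minus strand), H2AC6 at chr6:26123922-26124171 (plus), H2BC5 at chr6:26157871-26158120 (plus) and H2AC25 at chr1:228457874-228458123 (minus). Capitals mark 4 motifs searched on both strands: TATAAA (the TATA box), CCAAT, ATTTGCAT (the octamer known from H2B promoters) and AAACACA (an element known from H1 promoters). No 2 matches overlapped.
H1-10: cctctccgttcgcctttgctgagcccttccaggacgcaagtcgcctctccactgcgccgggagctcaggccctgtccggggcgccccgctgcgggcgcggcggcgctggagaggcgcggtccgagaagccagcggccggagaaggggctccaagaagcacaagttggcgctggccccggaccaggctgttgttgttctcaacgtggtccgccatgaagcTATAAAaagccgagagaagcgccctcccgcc
H2AC6: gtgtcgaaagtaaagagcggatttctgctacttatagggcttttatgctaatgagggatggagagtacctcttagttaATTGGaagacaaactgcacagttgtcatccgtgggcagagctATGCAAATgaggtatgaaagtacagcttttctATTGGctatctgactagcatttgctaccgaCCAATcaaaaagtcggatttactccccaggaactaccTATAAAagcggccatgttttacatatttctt
H2BC5: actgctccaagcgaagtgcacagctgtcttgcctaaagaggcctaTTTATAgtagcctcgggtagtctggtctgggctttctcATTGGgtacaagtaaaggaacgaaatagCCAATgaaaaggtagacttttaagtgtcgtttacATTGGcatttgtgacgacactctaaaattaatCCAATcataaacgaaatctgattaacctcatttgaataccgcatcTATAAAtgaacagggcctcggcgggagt
H2AC25: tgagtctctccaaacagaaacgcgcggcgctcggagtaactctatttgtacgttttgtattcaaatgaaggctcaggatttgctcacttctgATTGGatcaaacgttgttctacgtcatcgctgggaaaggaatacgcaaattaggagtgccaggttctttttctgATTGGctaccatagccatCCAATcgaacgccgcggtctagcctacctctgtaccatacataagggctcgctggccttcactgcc
H1-10 held a TATAAA 31 bases before its start and H2AC6 held one at 31 bases, while H2BC5 held one at 28 bases and a second, on the opposite strand, at 205 bases. CCAAT matched 3 times in H2AC6, 4 times in H2BC5 and 3 times in H2AC25, and the octamer matched once, in H2AC6 on the opposite strand at 130 bases. H2AC6 starts 246 bases from the start of H2BC4 on the other strand, so this window reaches the neighbouring gene.

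Of the 69 histone symbols, 59 had a promoter in the RefSeq table. TATAAA was present in 64.41% of them, against 11.3% of all 27305 promoters of the same length. CCAAT was present in 81.36%, against 32.9%, and it was found in 13 of 13 H2A, 16 of 16 H2B and 8 of 8 H3 promoters but in 3 of 13 H4 promoters. The octamer was present in 35.59%, against 1.685%, in 8 of 13 H2A and 13 of 16 H2B promoters and in 0 promoters of H1, H3 or H4. AAACACA was present in 11.86%, against 4.959%, and all its matches were among H1 promoters, 7 of 9. These matches describe the letters and not binding by a factor.

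By class, the median log2 change with siRNA 2 was 0.58 over the 10 H2A probe sets, 9 of them above 0, and 0.26 over the 11 H2B probe sets, 10 of them above 0. It was -0.097 over the 3 H3 and 0.16 over the 6 H4 probe sets. With siRNA 1 the median was 0.046 for H2A, 0.26 for H2B, 0.067 for H3 and -0.0085 for H4. Over the 33 together it was 0.085 with siRNA 1, 23 of them above 0, and 0.30 with siRNA 2, 26 above 0, against -0.0044 and -0.0086 over all probe sets tested, of which 49.3% and 48.9% were above 0. The 33 and their class counts include 3 that passed the filter through knockdown arrays alone: H4C9, H2BC4 (236193_at) and H3C6 (236278_at). Without those 3, 20 of 30 were above 0 with siRNA 1 and 23 of 30 with siRNA 2, with medians of 0.068 and 0.27. These medians are descriptions with no test, and they are of the members that passed the filter. Over all 78 without the filter they were 0.093 with siRNA 1 and 0.19 with siRNA 2, against -0.0055 and -0.010 over all 54613 probe sets. By class without the filter, the medians with siRNA 1 were 0.025 over 16 H2A, 0.20 over 20 H2B, 0.34 over 10 H3 (9 of them above 0) and -0.0085 over 16 H4 probe sets. With siRNA 2 they were 0.44 for H2A, 0.19 for H2B, -0.14 for H3 and 0.16 for H4. Of those 10 H3 probe sets, 7 had not passed the filter. For H1 the medians were 0.47 and 0.63 over the 2 tested and -0.020 and 0.072 over all 13.

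**Figure D2:**
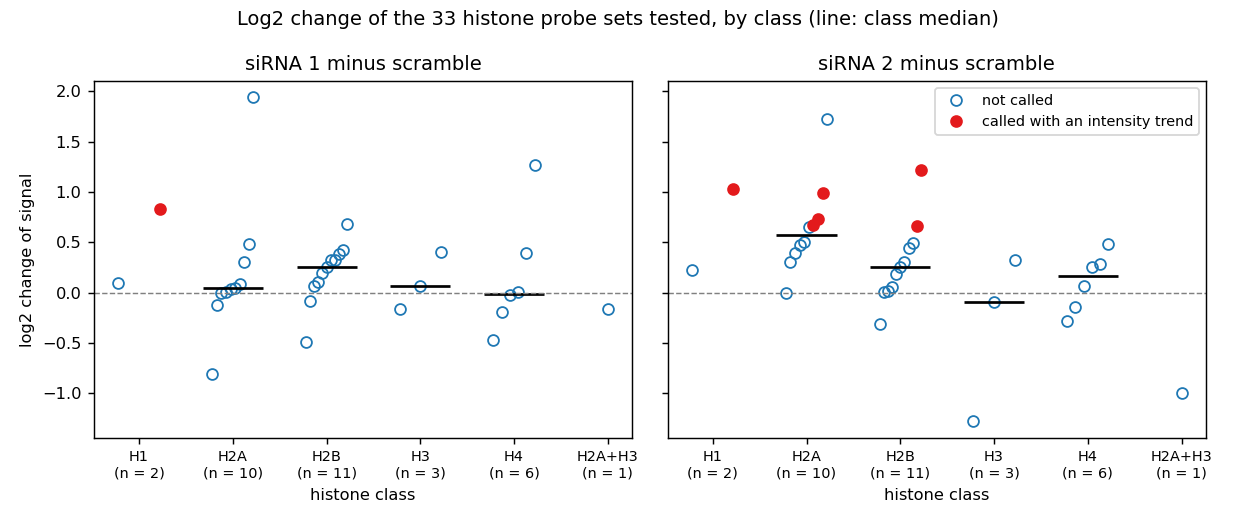
Log2 change of signal (siRNA 1 minus scramble, left, and siRNA 2 minus scramble, right) for the 33 tested histone probe sets by class, with the class median as a line and filled points for those called with the intensity trend. With siRNA 2 the H2A median was 0.58 and the H2B median 0.26, and the 6 filled points belong to H1, H2A and H2B. The 33 include 3, not among the filled points, that passed the filter through knockdown arrays alone.

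**Figure D3:**
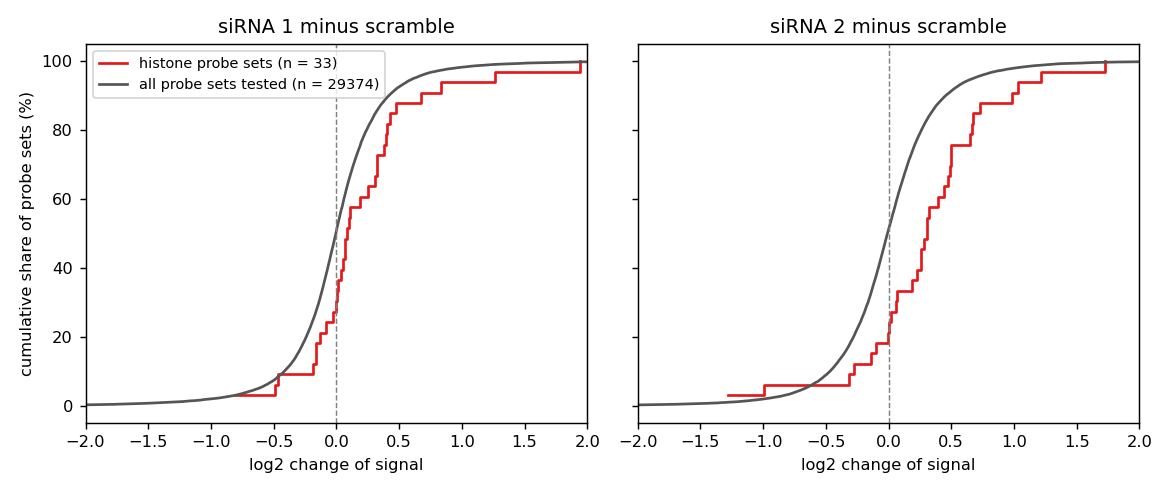
Cumulative share of probe sets (%) against log2 change for the 33 histone probe sets and for all 29374 tested, for siRNA 1 and siRNA 2 minus scramble. The histone line lies to the right of the other at the middle, with medians of 0.085 and 0.30 against -0.0044 and -0.0086. Without the 3 members that passed the filter through knockdown arrays alone, the histone medians were 0.068 and 0.27.

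The members were also counted by whether the arrays of 2 groups overlapped. With siRNA 1, both arrays lay above both scramble arrays for 11 of 33 histone probe sets and below for 1, against 22.9% and 22.7% of all probe sets tested. With siRNA 2 this held for 14 above and 5 below, against 24.3% and 25.1%. Without the 3 members that passed the filter through knockdown arrays alone, 9 and 12 of 30 lay above with siRNA 1 and siRNA 2. The 20 probe sets with 1 symbol had medians of 0.28 and 0.46 with siRNA 1 and siRNA 2, and the 13 with several symbols had -0.0021 and 0.017. Those 20 include all 3 members that passed the filter through knockdown arrays alone, so this contrast is given only as values.

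The siRNA 2 arrays did not contribute alike, while the siRNA 1 arrays had similar medians. The median histone log2 signal minus the scramble mean was 0.22 on siRNA 1 array A, 0.20 on siRNA 1 array B, 0.21 on siRNA 2 array A and 0.40 on siRNA 2 array B, with -0.054 and 0.054 on the scramble arrays. Of the 33 probe sets, 14 had their highest signal on siRNA 2 array B, which held the highest signal of 15.4% of all probe sets tested, and 12 had their lowest on scramble array A. All 6 of those called with the trend were highest on siRNA 2 array B. That array had an ACTB 3′ to 5′ signal ratio, a measure of RNA quality, of 12.4, against 7.47 on siRNA 2 array A, 6.52 and 7.82 on the siRNA 1 arrays, and 5.43 and 5.94 on the scramble arrays. The GAPDH ratio lay between 0.943 and 1.02. The part of this ratio in the histone result was not tested. Without siRNA 2 array B the histone median with siRNA 2 was 0.21. The median SD of log2 signal between duplicates was 0.256 for the histone probe sets and 0.170 for all those tested.

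**Figure D4:**
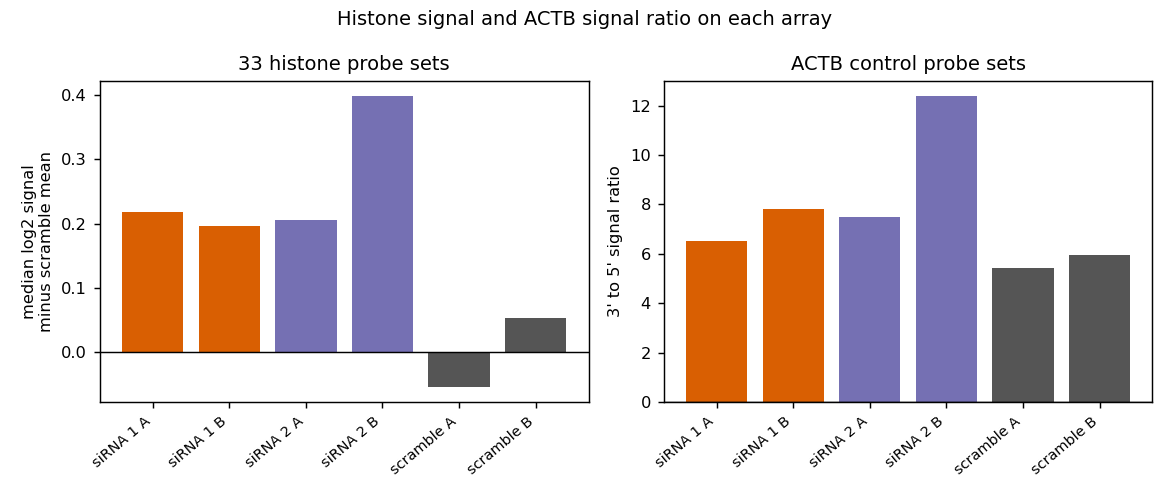
Median log2 signal of the 33 histone probe sets minus the scramble mean (left) and the ACTB 3′ to 5′ signal ratio (right) on each of the 6 arrays. siRNA 2 array B was highest in both, at 0.40 and 12.4.

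Between the siRNAs, 0 histone probe sets were called with the trend, where 2.23% of all were called in either direction. At an unadjusted p under 0.05, 3 differed, against 15% of all. They were H2AC25, with a log2 difference of siRNA 1 minus siRNA 2 of -0.58 (limma adjusted p = 0.288), the shared H2B probe set 208490_x_at, with -0.51 (adjusted p = 0.230), and the shared H4 probe set 208580_x_at, with 0.67 (adjusted p = 0.142). The median difference over the 33 was -0.12, and over the 10 H2A probe sets it was -0.50, 1 of them above 0.

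Other genes of the histone pathway were read from lists of the brightest probe set per gene, and limma called 0 of 104 genes with either siRNA and 0 between the siRNAs. At an unadjusted p under 0.05, 6 (5.77%) were higher and 7 (6.73%) lower with siRNA 1, against 6.97% and 5.98% of all probe sets tested. With siRNA 2, 8 (7.69%) were higher and 3 (2.88%) lower, against 8.63% and 8.11%. With the intensity trend 1 (0.962%) was called higher, with siRNA 2, against 1.67% of all. For siRNA 1 minus siRNA 2 the trend called 1 (0.962%) higher, ERI1, and 2 (1.92%) lower, H2AZ2 and CCNG2. That is near the 2.23% of all probe sets called in either direction. LSM11, a subunit of the U7 particle that cuts the 3′ end of histone mRNAs, gave 1390 and 1259 with siRNA 1, 1522 and 1585 with siRNA 2, and 900.3 and 1055 with scramble. All 4 knockdown arrays lay above scramble, and its log2 change was 0.67 with siRNA 2 (limma adjusted p = 0.133, with the trend 0.00727) and 0.44 with siRNA 1 (adjusted p = 0.301). It was the only one of 21 genes of histone transcription and 3′ processing called with the trend, and their median changes were -0.0011 and 0.043. CPSF2, of the same list, moved the other way, with all 4 knockdown arrays below scramble. Its log2 change was -0.34 with siRNA 1 (limma adjusted p = 0.284) and -0.51 with siRNA 2 (adjusted p = 0.126, with the trend 0.0118). With siRNA 2 its fold change was too small for it to be called with the trend. SLBP, which binds the stem-loop, gave 9187 and 8870.4 with siRNA 1, 7315 and 7677 with siRNA 2, and 8604 and 9386 with scramble. Both siRNA 2 arrays lay below scramble, but the change of -0.26 was not called (adjusted p = 0.307). NPAT, a coactivator of histone gene transcription, changed by -0.05 with siRNA 1 and -0.04 with siRNA 2, and CASP8AP2, which acts with it, by -0.07 and 0.07.

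**Figure D5:**
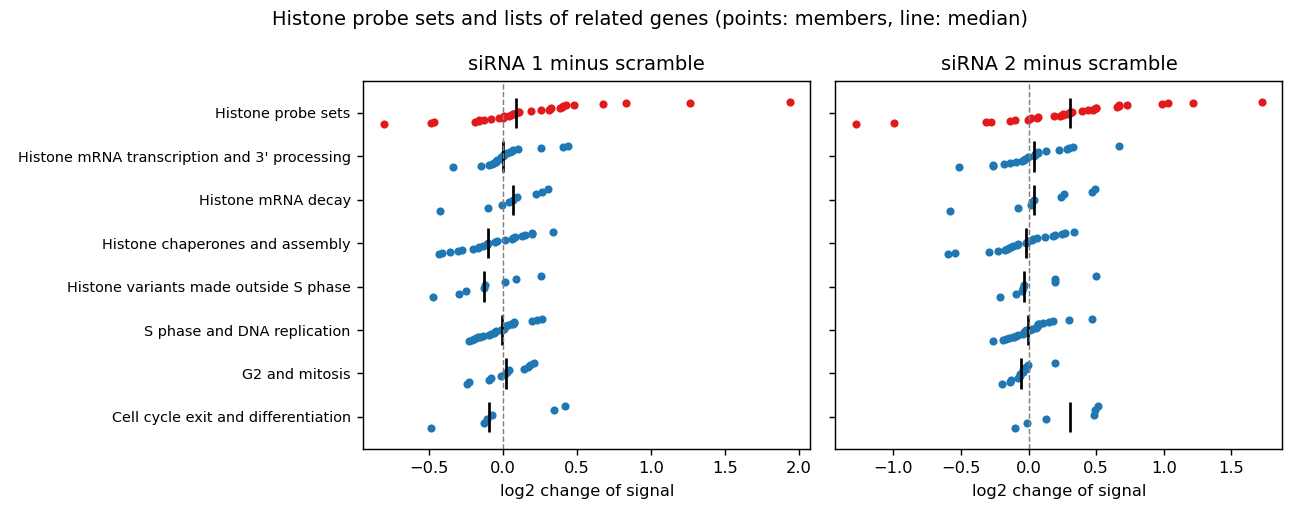
Log2 change of signal with siRNA 1 (left) and siRNA 2 (right) for the 33 histone probe sets and for members of 7 lists of related genes, with the median of each as a line. The S phase list had medians of -0.011 and -0.0029, against 0.085 and 0.30 for the histone probe sets. The 33 include 3 that passed the filter through knockdown arrays alone.

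Of 26 S phase and replication genes, 0 were called with the trend, and their medians were -0.011 with siRNA 1 and -0.0029 with siRNA 2. The trend called 0.861% of all probe sets higher and 0.746% lower with siRNA 1, and 1.67% and 1.43% with siRNA 2. At such shares 0 of 26 does not set these genes apart. In that list PCNA changed by -0.23 and -0.09, and CCNE2 by 0.07 and 0.06. The 12 genes of G2 and mitosis had medians of 0.020 and -0.053, with MKI67 at 0.17 and -0.08. The 23 chaperone and assembly genes had medians of -0.10 and -0.020, with ASF1B, which hands H3 and H4 to assembly factors, at -0.17 and -0.11. The 9 genes of histone mRNA decay had medians of 0.066 and 0.039. ERI1, an exonuclease that trims histone mRNA, differed between the siRNAs with the trend, by 0.65 (adjusted p = 0.0241). Against scramble it changed by 0.07 with siRNA 1, where the arrays overlapped, and by -0.58 with siRNA 2, both arrays below. Among the 8 tested variants made outside S phase the medians were -0.13 and -0.037, and H2AZ2 differed between the siRNAs by -0.67 with the trend (adjusted p = 0.00118). Against scramble H2AZ2 changed by -0.48 with siRNA 1, both arrays below, and by 0.19 with siRNA 2, both arrays above. The 6 tested genes of cell cycle exit had medians of -0.092 and 0.31. CDKN1A, an inhibitor of cyclin-dependent kinases, changed by 0.34 with siRNA 1 and 0.49 with siRNA 2, and the related CDKN1B by 0.42 and 0.49. For both genes all 4 knockdown arrays lay above scramble and the unadjusted p was under 0.05 with each siRNA, but neither was called. They were the only 2 of the 6 above 0 with siRNA 1. RBL2 changed by -0.49 with siRNA 1, both arrays below scramble (limma unadjusted p = 0.0097, not called), and by -0.01 with siRNA 2. CCNG2 differed between the siRNAs by -0.59 (adjusted p = 0.0127, with the trend). Against scramble it changed by -0.08 with siRNA 1, where the arrays overlapped, and by 0.52 with siRNA 2, both arrays above.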

How the data were processed

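The deposited table holds linear signal intensity per probe set for 6 arrays, made by the authors with Affymetrix Expression Console, per the submitters' processing notes. Its version and the summarization method it ran were not given in the sources used here. After a 2% trim at both ends, array means ran from 500.067 to 500.07, the same scale on each. No sequencing depth applies, and the number of arrays limits the precision. Groups came from the sample titles. One siRNA 1 title spells the gene differently and was assigned by its siRNA number.

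Probe sets were named from the platform's annotation, and all 69 histone symbols matched RefSeq. The 62 control probe sets were left out. Signals were used as log2(signal + 1). The 29374 probe sets that exceeded the array median on 2 or more arrays entered limma 3.58.1 (R 4.3.3; 3 residual and 1.74 prior degrees of freedom). The intensity trend is an alternative prior. The script was tested on simulated data. Named in full are called members, the largest changes with each siRNA and the brightest probe set of each class. Members and lists were chosen with earlier results of these data known. Promoters were searched in Python 3.11.15.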

Additional observations from a re-analysis of the deposited data

Results flagged for a closer look

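A probe set shared by 14 H4 genes including H4C15 (208580_x_at) lay on opposite sides of scramble with the 2 siRNAs. Both siRNA 1 arrays lay above both scramble arrays and both siRNA 2 arrays lay below them, at means of 217 ± 12.5, 136 ± 1.13 and 165 ± 10.5 for siRNA 1, siRNA 2 and scramble (SD, n = 2 each). The log2 difference, siRNA 1 minus siRNA 2, was 0.67 (95% interval 0.39 to 0.95). The difference was tested with limma and did not pass after adjustment over all probe sets (unadjusted p = 0.00180, adjusted p = 0.142). The brighter H4 probe set with the same 14 symbols (205967_at) had overlapping groups.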

How the results depend on the processing

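By limma, 0 histone probe sets were called in every comparison as reported. The same held under quantile normalization, median centring, the replicate letter as a block and a pseudocount of 16. It also held with no filter and with 1 probe set per gene. Among the 16 tested probe sets not of the types that can bind related transcripts, 0 were called as well. Some of those 16 still carry several symbols, up to 14. The intensity trend called 1 with siRNA 1 and 6 with siRNA 2. In trend fits chosen after seeing the data, the calls changed when 1 array was left out. Such a fit leaves 1 array in a group, so those counts are not given. Quantile normalization and median centring kept the trend counts at 1 and 6, and the block gave 1 and 5. The replicate letters did not pair the arrays (correlations of deviations -0.0333, 0.0214 and 0.0507). Each group held 1 array of each letter, so the block could not change the medians, which were 0.085, 0.30 and -0.12. The median log2 change was 0.28 with siRNA 1 and 0.46 with siRNA 2 over 18 genes with 1 probe set each, and 0.19 with siRNA 2 without the filter. Those 18 include the 3 members that passed the filter through knockdown arrays alone. Without 1 array of the comparison, the median ranged from 0.12 to 0.22 with siRNA 1, against 0.085 with all arrays. It ranged from 0.21 to 0.40 with siRNA 2 and from -0.22 to -0.011 between the siRNAs. Of 822 values of the 22 named probe sets, 815 kept their side of the threshold, 7 passed it with the trend, and 41 differed in sign while uncalled. With 1 probe set per gene, limma called 51 genes with siRNA 1, 77 with siRNA 2 and 20 between the siRNAs, 0 of them histones. These calls were a small share of all genes in that fit, which held 18 histone genes. At such shares 0 of 18 does not set the histone genes apart. The causes were not tested.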
